A study of Homo sapiens with 9 samples.

Results

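The transcriptome of human spinal cord organoids (SCOs) exposed to valproic acid (VPA) together with Rapamycin was compared with that of SCOs exposed to vehicle, to describe which functions stayed changed when both drugs were present. The comparison was defined by its libraries, the 3 of VPA + Rapamycin and the 3 of vehicle, which make up 6 of the 9 samples of the series, and 17383 genes had enough reads to be tested. The other 3 libraries, from SCOs exposed to VPA alone, are used for side-by-side values. SCOs are 3-dimensional cultures that model the developing spinal cord with its neural progenitors, early neurons and neural crest cells. All 3 conditions share the same background, the WTC line of human induced pluripotent stem cells, which the study had edited at SOX10 to carry a fluorescent reporter and a lineage switch, in clones C2, C36 and C40. The labels give the genotype as WT and do not tie a replicate number to a clone. Vehicle was FGF alone, the second condition added VPA, and the third added VPA and Rapamycin. VPA was added at 2 mM or 1 mM and for 72 h or 96 h, as the sources differ on both, and Rapamycin was added at 200 nM. Each sample pooled 5 to 7 SCOs, so a library averages over several organoids. In whole-organoid RNA, fewer cells of a type and less RNA per cell cannot be told apart. Libraries of vehicle and of VPA alone are described as SCOs of separate clones, which is not stated in so many words for both drugs, so the p-values measure at most the spread between clones of a single line.

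VPA is a short fatty acid used against epilepsy that inhibits class I histone deacetylases, the enzymes that take acetyl groups off histones, and is a known cause of neural tube defects. Rapamycin binds FKBP12 and inhibits mTOR complex 1, the kinase that couples nutrients and growth factors to protein and lipid synthesis and that restrains autophagy. In the developing spinal cord, progenitors leave the cell cycle under proneural bHLH factors and then take on interneuron or motor neuron identities through homeodomain and other transcription factors.

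Depth was even, with 15290299 to 17417338 counts per library. Mitochondrial genes took 5.14 to 7.41% of the counts. Replicates differed most between vehicle replicates 1 and 3 (chi-square per gene of 39.1). The value was 17.9 between vehicle replicates 2 and 3, 13.5 between 1 and 2, and 6.55 to 14.4 among the VPA + Rapamycin libraries. For several genes with an extreme value in vehicle replicate 3, it is stated whether the call held without it. The markers of neural progenitors (SOX1, SOX2, SOX3, PAX6, NES, MSI1 and CDH2) summed to levels of 42482 to 49045 in vehicle and 46564 to 48557 with both drugs, in TMM-scaled counts, the scale of every level given here. Those of neurons (ELAVL3, ELAVL4, DCX, TUBB3 and STMN2) summed to 14787 to 24973 in vehicle, 11882 to 13246 with VPA and 12735 to 13474 with both drugs. The sum was thus lower in each library with both drugs than in each vehicle library. Of the 5 markers 3 were lowered, while DCX and TUBB3 were not called and their libraries overlapped. STMN2 lost its call in 4 of 14 alternatives and ELAVL3 in 1, while DCX was called lowered in 5 of 14. Mesenchymal markers summed to 2265 to 4863 in vehicle, 9185 to 11767 with VPA and 4012 to 6098 with both drugs. Their ranges in vehicle and with both drugs overlapped. Of 6 lists of other cell types (pluripotent, paraxial mesoderm, muscle, endothelial and blood, endoderm, epithelium), members such as PTPRC, AFP, MYF5, KRT5 and CDX1 had 0 counts in every library. Other members of these lists did have counts. Pluripotency markers summed to 5439 to 9393 in vehicle and 4941 to 6029 with both drugs, and paraxial mesoderm markers to 7923 to 8596 and 8074 to 9420. Endoderm markers summed to 1992 to 2405 in vehicle and 1716 to 1983 with both drugs, and muscle markers to 795 to 871 and 729 to 815. Endothelial and blood markers summed to 559 to 809 in vehicle, 1040 to 1135 with VPA and 867 to 946 with both drugs, without overlap between both drugs and vehicle. Of 8 tested 3 (ESAM, EGFL7 and CLDN5) were raised, with raised counts between 1 (without VPA + Rapamycin replicate 1) and 3 (without vehicle replicate 3) when a library was left out. EGFL7 and CLDN5 each lost their call in 4 of 14 alternatives, and ESAM overlaps another gene on the other strand. Of 9 epithelial markers tested 2 were raised and 1 lowered, and their sums overlapped, at 417 to 1180 in vehicle and 700.4 to 1048 with both drugs.

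With both drugs, 1705 genes were raised (9.81% of the genes tested) and 1602 were lowered (9.22%) at an adjusted p of 0.05 by edgeR's quasi-likelihood test. VPA alone, against the same vehicle libraries, raised 2840 of 17360 genes (16.4%) and lowered 2728 (15.7%). Adding Rapamycin to VPA raised 522 of 17317 genes (3.01%) and lowered 646 (3.73%) relative to VPA alone. These 3 comparisons share libraries, so their lists are not independent of each other, and the last one depended on the fit, with 44 raised and 69 lowered when all 9 libraries entered a single model. In the rest of the text, raised and lowered refer to genes past that threshold, and a log2 fold change is given with its standard error as VPA + Rapamycin over vehicle unless another pair is named. Raised genes tended to start from a low level, with a median vehicle level of 169 against 876 for lowered genes, and 746 of the raised but 375 of the lowered genes changed by at least 2-fold. Libraries with both drugs and vehicle libraries did not overlap for 1703 of the 1705 raised and 1580 of the 1602 lowered genes, as they also did not for 24.2% of the genes that were not called. Some genes named below were chosen for this lack of overlap, and stating it adds no support to a call. The number of calls rested on replication. Without vehicle replicate 2 the counts were 883 raised and 771 lowered, and without VPA + Rapamycin replicate 1, 2 or 3 they were 761, 821 and 862 raised and 534, 635 and 677 lowered. Without vehicle replicate 1 they were 2204 and 2110, and without vehicle replicate 3 they were 2087 and 1987.

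**Figure D1:**
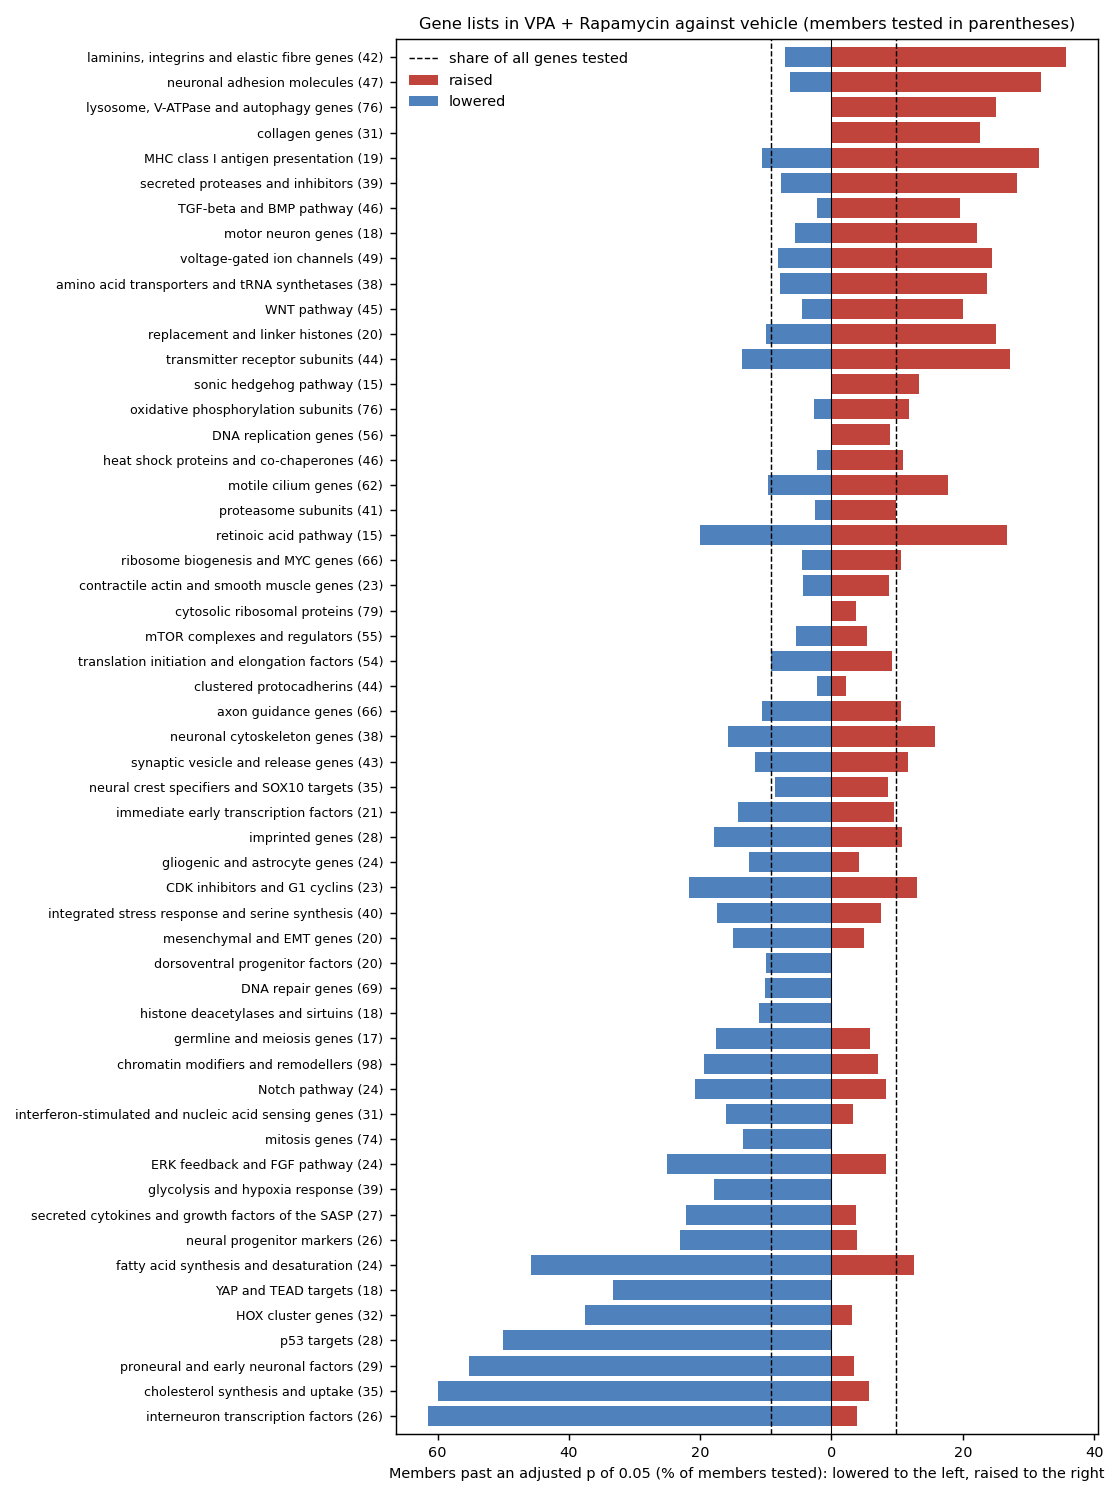
Share of members past an adjusted p of 0.05 in VPA + Rapamycin against vehicle, for each gene list with at least 15 members tested (horizontal axis, percent of members tested, lowered to the left in blue and raised to the right in red). Dashed lines mark the shares over all genes tested, 9.22% lowered and 9.81% raised, and interneuron transcription factors and cholesterol genes have the highest lowered shares.

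The plot of gene lists gives the outline. Lists of cholesterol synthesis, of p53 targets and of neuronal transcription factors held more lowered members than genes at large, whereas lists of cell adhesion, extracellular matrix, ion channels, lysosomes and antigen presentation held more raised members. All lists were written with results of these data already known, and are described by counts and medians only. The median log2 fold change of all genes tested was -0.00087.

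Cholesterol synthesis was lowered with both drugs. Of 35 tested genes of cholesterol synthesis and uptake, 21 were lowered and 2 raised. Their log2 fold changes had a median of -0.67, and the lowered count lay between 15 (without VPA + Rapamycin replicate 1) and 22 (without vehicle replicate 3) when a library was left out. HMGCS1, which makes the HMG-CoA that enters the mevalonate pathway, had levels of 9194, 10971 and 13173 in the vehicle libraries, 5684, 6029 and 5019 with VPA and 3971, 4395 and 4613 with both drugs. No library with both drugs reached the lowest vehicle library, nor the lowest VPA library. The log2 fold change was -1.37 ± 0.14 (adjusted p = 0.000264), and against VPA alone it was -0.36 ± 0.08 (adjusted p = 0.0111).

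Other enzymes of the pathway were lowered too. ACAT2, a cytosolic thiolase at the entry to the pathway, had a log2 fold change of -1.32 ± 0.14, and IDI1, the isopentenyl diphosphate isomerase, named after its values were seen, one of -1.13 ± 0.14. ACAT2 overlaps another gene whose reads can enter its count. A gene of the feedback on the pathway moved with those of synthesis. INSIG1, which holds the sterol sensor SCAP in the endoplasmic reticulum, had 1798, 1983 and 3043 in vehicle and 707, 879 and 837 with both drugs, so every library with both drugs was below every vehicle library (-1.504 ± 0.19, adjusted p = 0.000755). The highest value of INSIG1 came from vehicle replicate 3, and its call held without that library. The exceptions among the called members were SCAP itself (0.40) and ABCG1, a sterol exporter (1.18), both raised in the full comparison. The call of SCAP was lost without vehicle replicate 2 or 3 or any library with both drugs, and that of ABCG1 without vehicle replicate 1 or 2 or any library with both drugs, with DESeq2 and among protein-coding genes alone. With VPA alone, 17 of 34 members were lowered (median -0.40), and 8 of 34 were lower with both drugs than with VPA alone (median -0.19), which makes this one of the groups whose values lay further from vehicle with the combination.

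Fatty acid synthesis and desaturation showed the same direction in most of its called members. Of 24 genes tested, 11 were lowered and 3 raised (median -0.29), with lowered counts between 6 (without VPA + Rapamycin replicate 1) and 12 (without vehicle replicate 3) when a library was left out. SCD, the stearoyl-CoA desaturase and one of the most abundant transcripts of the list, had levels of 33548, 31219 and 30752 in vehicle, 24984, 23329 and 20195 with VPA and 15482, 18713 and 18002 with both drugs. The 3 conditions did not overlap, and the drop from VPA to both drugs was -0.39 ± 0.09 on the log2 scale (adjusted p = 0.0112). FASN, the fatty acid synthase, named after its values were seen (mean 14632 to 8333, -0.82 ± 0.15), ACACA, the acetyl-CoA carboxylase that supplies it (-0.72 ± 0.12), FADS2, a polyunsaturated fatty acid desaturase (-0.72 ± 0.10), and ELOVL6, an elongase (-0.73 ± 0.11), were lowered as well. FADS2 lies in a region where its neighbour FADS1 overlaps it, and reads shared by both cannot be assigned with certainty.

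Of 26 interneuron transcription factors, 16 were lowered and 1 raised, with a median of -0.93 and lowered counts between 10 (without VPA + Rapamycin replicate 2) and 17 (without vehicle replicate 1) when a library was left out. TAL1, a bHLH factor of V2b interneurons, had levels of 527, 553 and 459 in vehicle, 74.9, 51.9 and 84.4 with VPA and 90.3, 144 and 154 with both drugs. All drug-exposed libraries were below all vehicle libraries (log2 fold change -1.995 ± 0.20, adjusted p = 0.000264), and the level with both drugs was above that with VPA alone (0.88 ± 0.24, adjusted p = 0.0349). EVX1, the determinant of V0 interneurons, had 464, 421 and 509 in vehicle and 132, 156 and 98.8 with both drugs, without overlap (-1.86 ± 0.19). It overlaps its antisense transcript EVX1-AS, whose reads cannot be told apart from its own where the strand was not used. SOX14 of V2a interneurons (-1.24 ± 0.21), LHX5 (-0.98 ± 0.15, with an antisense gene that overlaps it), a LIM factor of dorsal interneurons, and BHLHE22 (-1.69 ± 0.17), a bHLH factor of dorsal horn and V1 neurons, followed. The list holds factors of several interneuron classes, and the called ones were lower in all of them apart from LHX2 (2.78), which was close to absent in vehicle (mean level 3.14) and lost its call without VPA + Rapamycin replicate 1.

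The factors that drive cell cycle exit and early neuronal differentiation moved with them. Of 29 proneural and early neuronal factors, 16 were lowered and 1 raised (median -0.62, lowered counts between 9 (without VPA + Rapamycin replicate 1) and 22 (without vehicle replicate 1) when a library was left out). NEUROD1, a bHLH factor of differentiating neurons, had 803, 1101 and 1195 in vehicle, 166, 208 and 204 with VPA and 294, 337 and 363 with both drugs. The 3 conditions formed 3 separate ranges, with the combination between VPA and vehicle (-1.65 ± 0.17 against vehicle, 0.79 ± 0.14 against VPA), and another gene overlaps NEUROD1 on its strand. INSM1 (-0.98 ± 0.12) and INSM2 (-2.68 ± 0.29), zinc finger factors of delaminating neural precursors, NHLH1 (-1.22 ± 0.15) and MYT1 (-1.07 ± 0.13), which act during neuronal differentiation, were lowered too. Over both neuronal lists, VPA alone lowered 19 of 26 interneuron factors and 25 of 29 proneural factors, and 11 of 26 and 13 of 29 were higher with the combination than with VPA. The summed neuron markers moved with these lists, as given above, and their part in the result was not tested.

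Genes of inhibitory and excitatory transmission were among those lowered. SLC6A5, the glycine transporter of inhibitory spinal neurons, had 432, 484 and 548 in vehicle, 64.1, 59.0 and 77.8 with VPA and 164, 155 and 103 with both drugs. Ranges with both drugs lay below vehicle and above VPA (-1.80 ± 0.19 and 1.07 ± 0.22). SLC17A6, the vesicular glutamate transporter of spinal excitatory neurons, had 169.9, 216 and 478 in vehicle, 9.86, 7.13 and 8.44 with VPA and 30.4, 33.6 and 36.4 with both drugs. GAD1, which makes GABA, had mean levels of 927, 299 and 449.5 (-1.05 ± 0.18). Vehicle replicate 3 gave the highest value of SLC17A6, and the gene stayed lowered without it. The list of synaptic vesicle genes as a whole had 5 raised and 5 lowered of 43, 11.6% in each direction and near the shares of all genes (median -0.03). SLC17A7, the vesicular glutamate transporter typical of cortical neurons, rose from 17.6, 7.61 and 34.7 to 70.7, 93.2 and 88.4 (2.05 ± 0.43), and SYT13, an atypical synaptotagmin, from a mean of 130.1 to 491 (1.90 ± 0.20). Of 18 motor neuron genes 4 were raised and 1 lowered, although the median of the list was below 0 (-0.24). Raised counts lay between 1 (without VPA + Rapamycin replicate 3) and 4 (without vehicle replicate 1) when a library was left out. NEFH, the heavy neurofilament, was raised (1.46 ± 0.22), and so was MNX1, the homeodomain factor of motor neurons, from 27.3, 34.8 and 24.5 to 56.9, 60.5 and 141 (1.57 ± 0.39), a call lost without VPA + Rapamycin replicate 3.

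HOX genes, which set position along the body axis, were mostly lower with both drugs, but the number of calls was unstable. Of 32 HOX genes tested, 12 were lowered and 1 raised (median -0.63). The lowered count was 21 without vehicle replicate 3, 7 and 2 without vehicle replicates 1 and 2, respectively, and 2, 6 and 1 without VPA + Rapamycin replicates 1, 2 and 3. HOXB2 had 2384, 2020.2 and 2089 in vehicle and 1549.7, 1429 and 1312 with both drugs (-0.61 ± 0.11), and its call held in the 14 settings other than the minimum fold change. HOXC8, a thoracic HOX gene, had 443, 586 and 307 and 253, 229.6 and 191 without overlap (-0.99 ± 0.22, with 0.80 ± 0.18 against VPA), but its call was lost without vehicle replicate 2 or VPA + Rapamycin replicate 3. HOXB9, the most abundant uncalled member, had 14879, 14934 and 7952 in vehicle and 8899, 9675 and 7089.5 with both drugs. Vehicle replicate 3 carried lower values of several trunk HOX genes than the other 2 vehicle libraries, and the 5 trunk markers (HOXB5, HOXB8, HOXC6, HOXC8 and HOXC9) summed to 3264 to 5360 in vehicle and 2340 to 3059 with both drugs. HOXB5, HOXB8, HOXC6 and HOXC9 lost their calls in 5, 3, 3 and 3 of 14 alternatives. HOX genes of a cluster overlap in the annotation, so reads of neighbours can be mixed.

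Targets of p53, the factor that answers DNA damage by arrest or death, were lowered and not raised. Of 28 tested, 14 were lowered and 0 were raised, also at an unadjusted p of 0.05 where 19 were lower and 0 higher, with DESeq2 calling 15 lowered and 0 raised (median -0.49, lowered counts between 8 (without VPA + Rapamycin replicate 1) and 16 (without vehicle replicate 3) when a library was left out). CDKN1A, the CDK inhibitor p21, had 1131, 893 and 975 in vehicle, 616, 522 and 657 with VPA and 396, 459 and 315 with both drugs. The 3 conditions did not overlap, and the combination gave the lowest values (-1.37 ± 0.16 against vehicle and -0.61 ± 0.13 against VPA, adjusted p = 0.00048 and 0.00722). PLK2, a polo-like kinase, followed the same order, with means of 663, 481 and 308. SPATA18, a regulator of mitochondrial quality, had 434, 499.9 and 585 in vehicle against 179, 198 and 190.3 with both drugs (-1.43 ± 0.16), and EDA2R, a death-domain receptor, 356, 342 and 374 against 185, 185 and 207 (-0.90 ± 0.14). With VPA alone 13 of 28 members were lowered and 1 raised, and 6 were lower with both drugs than with VPA.

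Of 23 CDK inhibitors and G1 regulators 3 were raised and 5 lowered, with lowered counts between 3 (without VPA + Rapamycin replicate 1) and 6 (without vehicle replicate 1) when a library was left out. CCND1, a D-type cyclin, had 9679.8, 10184 and 8015 in vehicle and 5648, 5495 and 4480.2 with both drugs (-0.84 ± 0.13), and CCND2 a mean of 2984 against 1571 (-0.94 ± 0.12). CCNE1, which acts at the entry to S phase, had 154, 204 and 119.5 against 368, 347 and 319 (1.11 ± 0.20). The ranges did not overlap for any of the 3. CCND3, the other D-type cyclin, was raised (0.60 ± 0.16), a call lost without vehicle replicate 2 or any library with both drugs. The Sprouty genes SPRY2 and SPRY1, feedback inhibitors of FGF signalling, were lowered as well, SPRY2 with a mean of 4058 against 2172 (-0.91 ± 0.12) and SPRY1 with 2351 against 1330.0 (-0.83 ± 0.11), and 6 of 24 genes of the ERK and FGF list were lowered and 2 raised, with lowered counts between 2 (without VPA + Rapamycin replicate 2) and 7 (without vehicle replicate 1) when a library was left out. SPRED3, a feedback inhibitor as well, was raised (0.55 ± 0.17), a call lost in 9 of 14 alternatives. FGFBP3, a secreted carrier of FGFs, was among the genes with the smallest p, with 30166, 25766 and 24186 in vehicle and 8711, 11705 and 9632 with both drugs (-1.42 ± 0.13). Of 18 YAP and TEAD targets 6 were lowered and 0 raised (1 at an unadjusted p of 0.05 by edgeR, 0 raised by DESeq2), with lowered counts between 4 (without VPA + Rapamycin replicate 1) and 8 (without vehicle replicate 3) when a library was left out. They included AMOTL2, an angiomotin (-0.84 ± 0.13), and IGFBP3, an IGF-binding protein (1272, 506 and 738 in vehicle, 245, 75.9 and 173 with both drugs, -2.36 ± 0.39). In the list of glycolysis and hypoxia response, 7 of 39 genes were lowered and 0 raised (0 at an unadjusted p of 0.05 by edgeR, 0 raised by DESeq2). Lowered counts lay between 1 (without VPA + Rapamycin replicate 1) and 10 (without vehicle replicate 3) and 2 were raised without vehicle replicate 1. SLC2A3, the neuronal glucose transporter, fell from 8097, 6598 and 4687 to 2408, 3367 and 3293 (-1.10 ± 0.19). GBE1, the glycogen branching enzyme, named for its small p and not as a member of that list, went from 1974, 1914 and 1818 to 584, 806 and 742 (-1.43 ± 0.13).

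The list of chromatin modifiers had 19 lowered and 7 raised of 98. The lowered count lay between 6 (without vehicle replicate 2) and 33 (without vehicle replicate 3) when a library was left out. CHD2 (-0.78 ± 0.10) and CHD3 (-0.90 ± 0.12), chromodomain remodellers, TET1, a 5-methylcytosine dioxygenase (-0.66 ± 0.12), and EZH1, a histone H3 methyltransferase (-0.57 ± 0.11), were lowered in the 14 settings other than the minimum fold change. CHD3 and HDAC7 overlap genes on the other strand. SMARCA2, the BRM ATPase of BAF complexes and a gene that HDAC inhibitors are known to induce, went the other way, from 52.7, 84.8 and 59.2 in vehicle to 477, 453 and 417 with VPA and 367, 329 and 406 with both drugs. The ranges of the drug conditions lay far above vehicle, and that with both drugs lay below that with VPA, a difference that did not pass the threshold (2.48 ± 0.21 against vehicle, -0.29 ± 0.11 against VPA). H1F0, the replacement linker histone that is a long-used marker of HDAC inhibition, had 11292, 8143 and 8629.9 in vehicle, 15474, 15455 and 15367 with VPA and 14254, 16850.4 and 14230.0 with both drugs (0.68 ± 0.13), and its difference between both drugs and VPA was -0.03 ± 0.08. Among 18 histone deacetylases and sirtuins, HDAC7 (-0.80 ± 0.15) and HDAC9 (-0.84 ± 0.15) were lowered and 0 were raised (1 at an unadjusted p of 0.05 by edgeR, 0 raised by DESeq2). Without vehicle replicate 1 the raised count was 1. MTOR, the target of Rapamycin, had mean levels of 2019 and 2514 and was not called (0.31 ± 0.11).

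Genes of excitable membranes were raised more often than lowered. Of 49 voltage-gated ion channel genes 12 were raised and 4 lowered (median 0.25, raised counts between 8 (without VPA + Rapamycin replicate 1) and 16 (without vehicle replicate 3) when a library was left out). SCN1A, a neuronal sodium channel mutated in Dravet syndrome, had 29.3, 35.9 and 24.5 in vehicle, 565, 506 and 555 with VPA and 328, 234 and 319 with both drugs. The 3 conditions did not overlap (3.29 ± 0.23 against vehicle, -0.88 ± 0.12 against VPA, adjusted p = 4.49e-05 and 0.00034). SCN9A, the sodium channel of nociceptors, had 24.4, 36.9 and 30.6 and 181, 161 and 186 (2.51 ± 0.24), and CACNA1G, a T-type calcium channel, 89.8, 53.2 and 146 and 398, 395 and 379 (2.00 ± 0.28). Both rose from low levels without overlap. CACNA2D1, the auxiliary calcium channel subunit that gabapentin binds, went the opposite way, with 408, 584 and 1367 in vehicle, 58.2, 27.5 and 25.3 with VPA and 79.5, 118 and 99.8 with both drugs (-3.00 ± 0.40). Its highest value came from vehicle replicate 3, and the call held without that library.

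Receptors for transmitters and adhesion molecules of neurons had the same bias to raised members. Of 44 receptor subunits 12 were raised and 6 lowered (median 0.29, raised counts between 6 (without VPA + Rapamycin replicate 2) and 16 (without vehicle replicate 3) when a library was left out). GRIN2B, an NMDA receptor subunit, had 40.03, 46.7 and 49.0 in vehicle, 337, 329 and 353 with VPA and 321, 257 and 338 with both drugs, and both drug conditions lay above vehicle and overlapped each other (2.74 ± 0.20). GRIK3, a kainate receptor subunit, rose from a mean of 762 to 1769.8 (1.21 ± 0.13) and GABRA3, a GABA-A receptor subunit, from 118 to 337 (1.503 ± 0.16). GRM2, a metabotropic glutamate receptor, was lowered (-1.07 ± 0.14). Of 47 neuronal adhesion molecules 15 were raised and 3 lowered (median 0.29, raised counts between 7 (without VPA + Rapamycin replicate 1) and 22 (without vehicle replicate 3)). TENM4, a teneurin, had 819, 802 and 861 against 1612, 1617 and 1688 (0.98 ± 0.10). CADM3, a nectin-like synaptic adhesion molecule, had 548, 598 and 555 in vehicle, 693, 756 and 737 with VPA and 911, 1029 and 995 with both drugs, 3 separate ranges in which the combination was the highest (0.78 ± 0.11 against vehicle and 0.43 ± 0.09 against VPA). CNTNAP1, which builds the paranodal junction with myelinating cells, was lowered (-1.08 ± 0.15). NRGN, the calmodulin-binding postsynaptic protein neurogranin, had the smallest p of all genes, with 165, 171 and 207 in vehicle, 1409, 1410.1 and 1255 with VPA and 1087, 966 and 979 with both drugs (2.47 ± 0.14, adjusted p = 3.27e-05). The levels with both drugs lay below those with VPA and far above vehicle, and PRKCB, a protein kinase C isoform, was ordered the same way (176, 163 and 219 in vehicle, 1150.3, 1159.6 and 1187 with VPA and 815, 789 and 890.2 with both drugs).

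Extracellular matrix genes stayed raised with both drugs. Of 42 laminins, integrins and elastic fibre genes 15 were raised and 3 lowered (median 0.22, raised counts between 7 (without VPA + Rapamycin replicate 1) and 18 (without vehicle replicate 1) when a library was left out), and of 31 collagen genes 7 were raised and 0 lowered by edgeR (2 lower at an unadjusted p of 0.05), with 6 raised and 1 lowered by DESeq2 and raised counts between 5 (without VPA + Rapamycin replicate 1) and 10 (without vehicle replicate 1). FBLN5, a fibulin that organises elastic fibres, had 14.6, 7.61 and 17.4 in vehicle, 222, 209.7 and 208 with VPA and 176, 209 and 184 with both drugs, a log2 fold change of 3.81 ± 0.29 (adjusted p = 7.25e-05). ITGA9, an integrin subunit that binds tenascin-C, rose from 342, 387 and 254 to 759.6, 680.2 and 714 (1.12 ± 0.16), LOXL1, a lysyl oxidase that cross-links elastin, by 1.04 ± 0.16, and LAMB1, a laminin chain of basement membranes, by 1.07 ± 0.19. COL6A2, a chain of microfibrillar collagen VI, had 2676, 1910.4 and 1775 in vehicle and 4546, 5641 and 4690.3 with both drugs (1.22 ± 0.16), and COL18A1, the basement membrane collagen that contains endostatin, 1223, 646 and 528 and 2203, 2419 and 1985 (1.45 ± 0.25). None of these ranges overlapped. LAMB1, LOXL1 and COL18A1 overlap genes on the other strand, whose reads can enter their counts. Endothelial and blood markers were higher with both drugs, as given above, and their part in the matrix result was not tested. The part of mesenchymal markers, whose sums overlapped between vehicle and both drugs, was not tested either. The difference between both drugs and VPA was -0.34 ± 0.09 for LAMB1 and -0.47 ± 0.10 for COL9A2, a cartilage collagen chain, and did not pass the threshold for FBLN5 (-0.16 ± 0.14), COL6A2 (-0.15 ± 0.08) or ITGA9 (0.19 ± 0.10). Over the collagen list, 13 of 30 were raised with VPA alone and 6 of 30 were lower with the combination than with VPA. Secreted proteases and their inhibitors had 11 raised and 3 lowered members of 39, with raised counts between 6 (without VPA + Rapamycin replicate 1) and 13 (without vehicle replicate 1) when a library was left out. MMP17, a membrane-anchored metalloproteinase, had 183, 179 and 213 against 417, 609 and 475 (1.37 ± 0.17), and ADAMTS10, a protease of the microfibril, had means of 381, 411 and 651 in vehicle, VPA and both drugs (0.76 ± 0.14 against vehicle, 0.67 ± 0.11 against VPA).

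The list of lysosomal genes also holds genes of the V-ATPase and of autophagy. Its members were raised without exception among those called by edgeR, 19 of 76 raised and 0 lowered (median 0.12, raised counts between 10 (without VPA + Rapamycin replicate 1) and 22 (without vehicle replicate 3) when a library was left out). 4 members were lower at an unadjusted p of 0.05, DESeq2 also called 0 lowered, and 2 were lowered with all 9 libraries in a single fit and 4 without vehicle replicate 3. ATP6V0D1, a subunit of the proton pump that acidifies lysosomes, had 568, 681 and 745 in vehicle, 1380.0, 1273 and 1385 with VPA and 1328, 1353 and 1252 with both drugs. Both drug conditions lay above vehicle and overlapped each other (0.97 ± 0.13). LAMP1, a membrane protein of lysosomes, went from 1849, 1838 and 1733 to 3157, 3041 and 2887 (0.74 ± 0.10), and the cathepsins CTSB (0.70 ± 0.10), CTSC (1.26 ± 0.22) and CTSD (1.00 ± 0.20), proteases of the lysosomal lumen, were raised. VPA alone raised 19 and lowered 6 of 76.

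Many lysosomal genes carry an element that binds TFEB and related factors, with the core TCACGTGA. The 250 bases before the start of each gene in RefSeq (GRCh38.p14) were searched for it, and the core reads the same on both strands. It was found for 283 of 27305 gene symbols (1.04%) and for 6 of the 57 lysosomal genes with a promoter in that table, 4 of them raised, 0 lowered and 2 not called. The 2 not called were GAA (-0.35) and ATP6V1G1 (0.06), named here after their values were seen. Windows of 30 bases on the strand of the gene are shown for the 4 raised genes, whose motif is in capitals, because they are the members in which a raised level and this element meet.
ATP6V0D1: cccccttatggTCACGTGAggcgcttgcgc
LAMP1: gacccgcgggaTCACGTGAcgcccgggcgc
MCOLN1: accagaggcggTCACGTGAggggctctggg
CTSA: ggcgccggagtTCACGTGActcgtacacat
The windows lie at chr16:67481199-67481228, chr13:113297199-113297228, chr19:7522571-7522600 and chr20:45891298-45891327, and the motif starts 60, 29, 42 and 26 bases before the annotated start. MCOLN1, the lysosomal calcium channel, and CTSA, a carboxypeptidase, named here for the motif after their values were seen, had log2 fold changes of 0.78 ± 0.19 and 0.57 ± 0.15, and both lost their call without VPA + Rapamycin replicate 1 or 2, CTSA also without replicate 3 or vehicle replicate 2. Each overlaps a gene with more counts, so the values of both are uncertain. MCOLN1 holds a second copy nearer to its start. A match of letters is no measurement of binding, and the genes without one in this window can have it elsewhere. The same search with the sterol element TCACNCCAC on both strands found 297 of 27305 symbols (1.09%) and 1 of the 27 matched cholesterol genes, SREBF2, the sterol-sensing transcription factor itself (-0.33 ± 0.10, also named after its values were seen, a call lost in 8 of 14 alternatives). Its window, with the motif in capitals, is on the strand of the gene at chr22:41832962-41832991.
SREBF2: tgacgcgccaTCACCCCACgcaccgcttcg

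Class I antigen presentation stayed raised for its antigen-presenting chains. Of 19 genes 6 were raised and 2 lowered, and 6 to 8 were raised when a library was left out. HLA-B, a classical class I heavy chain, had 439, 297 and 295 in vehicle, 1441, 1294 and 1503 with VPA and 1144, 1317 and 1037 with both drugs, and both drug conditions lay above vehicle and overlapped each other (1.75 ± 0.17, with -0.27 ± 0.09 against VPA). HLA-C (1.40 ± 0.12), HLA-E (1.04 ± 0.16) and TAP1, the peptide transporter (55.7, 70.6 and 58.2 against 133, 199 and 176, 1.45 ± 0.23), followed. The class I genes are close copies and overlap in the annotation, so reads can be split among them. The part of the higher endothelial and blood markers in this result was not tested. TAPBP, which loads peptide on class I chains, was lowered (-0.68 ± 0.15), a call lost without vehicle replicate 2 or VPA + Rapamycin replicate 3. In the interferon-stimulated list 1 was raised and 5 were lowered of 31, with lowered counts between 1 (without VPA + Rapamycin replicate 1) and 8 (without vehicle replicate 3) and 5 raised without vehicle replicate 1. PARP14, an interferon-induced ADP-ribosyltransferase, fell from 463, 537 and 402 in vehicle to 239, 190.2 and 216 with both drugs (-1.13 ± 0.16, and -0.47 ± 0.13 against VPA).

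Smaller groups also held more raised members than genes at large. Of 62 genes of motile cilia 11 were raised and 6 lowered, with raised counts between 6 (without VPA + Rapamycin replicate 1) and 12 (without vehicle replicate 3) when a library was left out. SPAG6, a protein of the central pair of the axoneme, had 73.2, 99.98 and 121 in vehicle, 793, 777 and 717 with VPA and 457, 493 and 552 with both drugs (2.34 ± 0.20), 3 separate ranges. CFAP44, an axonemal protein, was raised (1.67 ± 0.17), but it lies opposite the far more abundant BOC, whose reads can enter its count where the strand was not used. Of 38 amino acid transporters and tRNA synthetases 9 were raised and 3 lowered, with raised counts between 5 (without VPA + Rapamycin replicate 1) and 12 (without vehicle replicate 1). SLC43A1, a transporter of large neutral amino acids, had 43.0, 23.9 and 21.4 against 128, 160.5 and 112 (2.16 ± 0.30), SLC7A3, a cationic amino acid transporter, 532, 366 and 293 against 909.8, 817 and 679 (1.00 ± 0.20), and WARS, the tryptophanyl-tRNA synthetase, a mean of 875 against 1384 (0.65 ± 0.11), though it overlaps another gene. In the WNT pathway 9 of 45 genes were raised and 2 lowered, with raised counts between 3 (without vehicle replicate 2) and 10 (without vehicle replicate 3) when a library was left out. TCF7, a nuclear effector of the pathway, was raised (1.04 ± 0.18), and so was the ligand WNT4 (36.1, 29.3 and 32.7 against 81.5, 109.5 and 77.0, 1.44 ± 0.27). TCF7 overlaps a more abundant gene on the other strand. In the TGF-beta and BMP pathway 9 of 46 were raised and 1 lowered, with raised counts between 2 (without vehicle replicate 2) and 12 (without vehicle replicate 3). Without vehicle replicate 1, 11 were raised and 8 lowered. The median log2 fold change of this list in the full comparison was -0.0063. CHRDL1, a secreted BMP antagonist, had 583, 566 and 366 in vehicle, 2482, 2401 and 2438 with VPA and 1348, 1206 and 1113 with both drugs, 3 separate ranges (1.27 ± 0.17 against vehicle and -0.99 ± 0.08 against VPA). TGFB2, a ligand, was lowered (-0.75 ± 0.15).

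SOX10, the neural crest factor whose locus carries the reporter, stayed lowered with both drugs. Its levels were 339, 269.5 and 235 in vehicle, 4.93, 10.2 and 8.44 with VPA and 7.85, 35.5 and 65.5 with both drugs. The lowest library with both drugs lay among those with VPA and the other 2 above them, and all were below vehicle (-2.97 ± 0.47 against vehicle, adjusted p = 0.00229). The difference from VPA was 2.19 ± 0.60 (adjusted p = 0.0345), and SOX10 overlaps POLR2F on the other strand, whose count was larger than its own. The crest list, SOX10 included, had 3 raised and 3 lowered of 35, with raised counts between 1 (without vehicle replicate 2) and 5 (without vehicle replicate 3) and lowered counts between 1 (without VPA + Rapamycin replicate 1) and 6 (without vehicle replicate 1) when a library was left out. ERBB3, the neuregulin receptor of Schwann cell precursors, was raised from 138, 137 and 115 to 265, 298 and 246 (1.04 ± 0.17). PAX3, which marks dorsal progenitors and early crest, was not called (-2.26 ± 0.89), and neither was SOX2, the progenitor factor (0.04 ± 0.11), which lies within a longer transcript of the same strand.

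**Figure D2:**
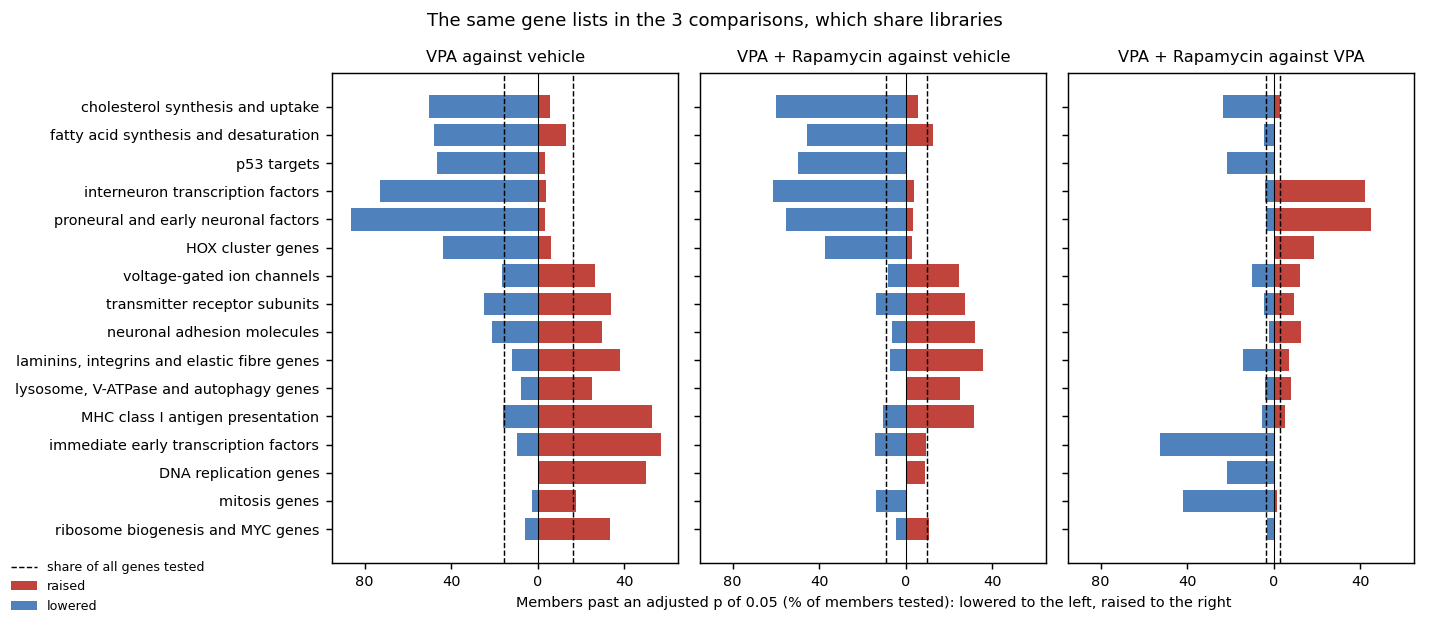
Share of members past an adjusted p of 0.05 for 16 gene lists in the 3 comparisons (horizontal axis, percent of members tested, lowered to the left in blue and raised to the right in red, dashed lines for the share over all genes tested). Cholesterol genes and p53 targets have lowered members in all 3 panels, neuronal factors have raised members in VPA + Rapamycin against VPA, and the immediate early, replication and mitosis lists have lowered members there.

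Of 56 DNA replication genes 5 were raised with both drugs, against 28 with VPA alone, and 12 were lower with both drugs than with VPA (medians 0.19, 0.41 and -0.23). The raised count with both drugs lay between 0 (without VPA + Rapamycin replicate 1) and 6 (without vehicle replicate 1) when a library was left out. Of 74 mitosis genes 10 were lowered and 0 raised (0 at an unadjusted p of 0.05 by edgeR, 0 raised by DESeq2) with both drugs, 2 lowered and 13 raised with VPA alone, and 31 were lower with both drugs than with VPA (medians -0.16, 0.14 and -0.25). The lowered count with both drugs lay between 0 (without VPA + Rapamycin replicate 2) and 21 (without vehicle replicate 3). Ribosome biogenesis genes had 7 raised of 66 with both drugs, between 2 (without VPA + Rapamycin replicate 1) and 13 (without vehicle replicate 1), against 22 with VPA alone. These shares for the combination, from 8.93 to 13.5%, were near those of all genes. Cytosolic ribosomal proteins, whose translation depends on mTOR, had 3 raised and 0 lowered of 79 at the RNA level (1 at an unadjusted p of 0.05 by edgeR, 0 lowered by DESeq2). Raised counts of ribosomal proteins lay between 0 (without vehicle replicate 2) and 23 (without vehicle replicate 1) when a library was left out. Among immediate early factors EGR1 stayed raised, at 2015, 2022 and 1331 in vehicle, 20078, 18263 and 24006 with VPA and 3639, 3176 and 2970.2 with both drugs (0.86 ± 0.16), 3 separate ranges, and 2 of 21 members were raised and 3 lowered.

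Some genes were lower with both drugs than in either other condition. BTG2, an antiproliferative gene of neurogenic progenitors, had 1827, 1574 and 1472 in vehicle, 2109, 1787 and 2366 with VPA and 982, 1048 and 1062 with both drugs, with the combination below both other ranges (-0.66 ± 0.11 against vehicle, -1.02 ± 0.09 against VPA). NR4A1, an orphan nuclear receptor, had 504, 423 and 362 in vehicle, 528, 427 and 642 with VPA and 205, 251 and 190.3 with both drugs (-1.003 ± 0.17 and -1.30 ± 0.15). ATF4, the factor of the integrated stress response that mTOR complex 1 also controls, had 4410.3, 3679.6 and 4093 in vehicle, 3523, 3227 and 3539 with VPA and 2382, 2747 and 2506 with both drugs (-0.68 ± 0.11 and -0.43 ± 0.08), and HDAC9, a class IIa histone deacetylase, had 1404, 1582 and 2103 in vehicle, 1408, 1444 and 1432 with VPA and 926, 939.7 and 996 with both drugs (-0.84 ± 0.15 and -0.58 ± 0.07). For these 4 genes no library with both drugs reached any vehicle or VPA library. The difference of VPA from vehicle passed the threshold for none of the 4 (0.35 ± 0.13, 0.30 ± 0.17, -0.25 ± 0.10 and -0.26 ± 0.14 for BTG2, NR4A1, ATF4 and HDAC9). HES5, a Notch target in progenitors, and CLU, a secreted chaperone, lay between VPA and vehicle, HES5, whose call against vehicle was lost without vehicle replicate 2 or any library with both drugs, with means of 5219, 10163 and 6656 (-0.61 ± 0.09 against VPA) and CLU with 2277, 4769 and 3540.4 (0.63 ± 0.12 against vehicle, -0.43 ± 0.08 against VPA).

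Single genes outside these lists had some of the clearest changes. BMP8B, a BMP ligand, went from 35.1, 28.3 and 32.7 in vehicle to 259, 313 and 289 with both drugs (3.15 ± 0.20), CLIC6, a chloride intracellular channel protein, from 82.0, 67.4 and 66.4 to 512, 408 and 444 (2.65 ± 0.17), and SLC7A10, a transporter of small neutral amino acids in astrocytes, from 11.7, 3.26 and 8.17 to 191, 234 and 246 (4.81 ± 0.34). All 3 started from low vehicle levels. BMP8B and SLC7A10 overlap more abundant genes on the other strand, PPIE and LRP3. ITIH5, which binds hyaluronan in the matrix (10.7, 6.52 and 1.02 to 155, 222 and 145, 4.79 ± 0.45), and CHRM4, a muscarinic receptor (9.76, 16.3 and 7.15 to 146, 165 and 84.2, 3.56 ± 0.38), had fold changes of the same order. On the lowered side, DDX39B, a helicase of mRNA splicing and export, had 3796, 4123 and 3881 in vehicle and 1677, 1781 and 1819 with both drugs (-1.17 ± 0.10), the smallest p among lowered genes. C9orf72, the gene whose repeat expansion causes amyotrophic lateral sclerosis, went from 2368, 2393 and 2862 to 1087, 1094 and 1198 (-1.18 ± 0.12), NPR2, the receptor for C-type natriuretic peptide, from 769, 782 and 689 to 329.8, 312 and 279.8 (-1.29 ± 0.13), and INPP5D, an inositol phosphatase, from 108, 139 and 150.1 to 21.6, 8.65 and 16.6 (-3.09 ± 0.33). INPP5D was also lower with both drugs than with VPA (-1.37 ± 0.40, adjusted p = 0.0454). The lowered gene with the largest fold change was CRH, the corticotropin-releasing hormone (-4.92 ± 0.86), whose vehicle libraries spanned 51.7, 163 and 628, with 14.7, 8.65 and 4.16 with both drugs. Vehicle replicate 3 set its mean, and the call held without it.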

How the data were processed

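RNA of 9 SCO libraries, 3 each of vehicle, VPA and VPA + Rapamycin, was sequenced as poly-A libraries, and groups were taken from the labels. The deposited tables hold counts of reads per gene that the authors made, with HISAT2 2.0.5 and featureCounts 1.5.0-p3 named in the submitters' processing notes and GRCh38 as the build. Use of strand is not given in the sources used here. Their columns of normalized signal, of FPKM and of fold changes and p-values between conditions were not used. Counts were filtered with filterByExpr, scaled by TMM and tested with the quasi-likelihood test of edgeR 4.0.16 (R 4.3.3), fitted on the libraries of each pair, with Benjamini-Hochberg adjustment over all genes tested. The procedure was tested on simulated data. A comparison of 3 libraries against 3 cannot give an exact permutation p below 0.1. Levels are counts scaled by TMM over the 9 libraries. Alternatives were DESeq2, other scalings and filters, a fit over all 9 libraries, a block on replicate number, protein-coding genes alone, a minimum fold change and leaving out each library.

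Members, 62 gene lists and tests were chosen with earlier results of these data known. Genes were named by rule: the 12 with the smallest p in each direction whose libraries did not overlap, the 8 with the largest fold change in each direction at a mean level of at least 50, up to 5 called members per list and direction by p, up to 2 uncalled members per list by level, and a fixed set that includes SOX10, CDKN1A and MTOR. Genes outside it are marked as chosen after their values were seen, except markers of cell types and genes that overlap a named gene. Some items are not reported here.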

Additional observations from a re-analysis of the deposited data

How the results depend on the processing

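In VPA + Rapamycin against vehicle, the 132 called genes named in the text kept their direction in each alternative that tested them, other than the minimum fold change. Most were tested in 14 alternatives and some in 13, among them SOX10, CRH, FBLN5 and SLC7A10. Of the 132, 110 stayed past the threshold in each alternative that tested them. Among uncalled genes, DCX passed it in 5 of 14 alternatives, HOXB9 in 4 of 14, PAX3 in 2 of 13 and MTOR in 1 of 14. Calls of single genes and of lists in the other comparisons were not followed in this way. Requiring at least a 2-fold change (log2 of 1) left 746 raised and 375 lowered genes for VPA + Rapamycin against vehicle, 1180 and 786 for VPA against vehicle and 64 and 124 for VPA + Rapamycin against VPA. It left 9 cholesterol genes, 1 fatty acid gene, 9 interneuron factors, 4 proneural factors, 3 HOX genes and 4 p53 targets lowered, and 4 adhesion, 9 laminin and integrin and 2 lysosomal genes raised. With all 9 libraries in a single fit, 44 genes were raised and 69 lowered for VPA + Rapamycin against VPA, and the cause was not tested. Without a filter on low counts 21 HOX genes were lowered.

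When each library was left out in turn, raised and lowered counts ranged from 761 to 2204 and from 534 to 2110 for VPA + Rapamycin against vehicle, from 1791 to 3480 and from 1599 to 3230 for VPA against vehicle, and from 175 to 533 and from 297 to 670 for VPA + Rapamycin against VPA, with VPA replicate 2 behind the lowest values of the last 2 comparisons. Lowered members ranged from 15 to 22 for cholesterol, 6 to 12 for fatty acids, 10 to 17 for interneuron factors, 9 to 22 for proneural factors, 1 to 21 for HOX genes and 8 to 16 for p53 targets. Raised members ranged from 8 to 16 for ion channels, 6 to 16 for receptors, 7 to 22 for adhesion, 7 to 18 for laminins and integrins, 10 to 22 for lysosomes and 6 to 8 for class I presentation.

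Whether replicate numbers pair the libraries was not established, as the labels do not tie them to clones. Same-numbered libraries of vehicle and VPA + Rapamycin correlated at 0.0924, 0.0641 and 0.172 in their deviations from the condition means, and VPA + Rapamycin replicate 2 correlated best with vehicle replicate 1. With the replicate block, 2104 genes were raised and 1936 lowered for VPA + Rapamycin against vehicle, 2598 and 2367 for VPA against vehicle, and 539 and 705 for VPA + Rapamycin against VPA. Depth limited calls among low genes, where the smallest called change was 0.86 on the log2 scale among genes with levels of 7.01 to 57.3 against 0.29 among those of at least 968.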

Other observations

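Transcription factor families, taken from the annotation in the deposited tables and looked at after the values were seen, differed in their counts. The shares over all genes tested were 9.81% raised and 9.22% lowered. Of 105 homeobox genes tested 9 were raised (8.57%) and 28 lowered (26.7%), with a median log2 fold change of -0.27. Of 547 C2H2 zinc finger genes 20 were raised (3.66%) and 65 lowered (11.9%, median -0.07). Of 74 bHLH genes 12 were raised (16.2%) and 14 lowered (18.9%, median -0.08). These counts come from the full comparison and were not repeated with a library left out. By biotype, 43 of 964 antisense genes were raised (4.46%) and 64 lowered (6.64%), and 46 of 756 lincRNAs were raised (6.1%) and 54 lowered (7.14%). Of 14100 protein-coding genes 1569 were raised (11.1%) and 1370 lowered (9.72%).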
